A study of Mus musculus with 10 samples.

Results

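Acetylcholine slows the heart and shortens the atrial action potential through a short chain of proteins, and 7 genes of that chain were followed here in the left atrium of mice after induced deletion of Tbx5, which encodes a T-box transcription factor of atrial muscle. The genes were Chrm2, Kcnj3, Kcnj5, Gnao1, Gnai2, Rgs4 and Rgs6, taken by name from the 54532 genes of the deposited count table. Each symbol stood for 1 row of the table, and all 7 were among the 17752 genes with enough counts to be tested.

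The tissue was the part of the left atrium around the pulmonary veins, dissected with 1 to 2 mm of vein left on it and without the appendage. There were 6 CKO mice, which carried R26creERT2/creERT2 and a floxed Tbx5 allele on both chromosomes (Tbx5flox/flox), and 4 Ctrl mice, which carried R26creERT2/creERT2 and Tbx5+/+. Every animal in both groups therefore had the tamoxifen-inducible recombinase at the Rosa26 locus, which is active in most cell types and not in muscle alone. Every animal was given tamoxifen into the peritoneum for 3 days at 6 weeks of age and was sampled 1 week later, at 7 weeks. The labels do not state the sex of the animals or a batch. Xist, an RNA of female cells, was high in 5 libraries and low in 5.

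Acetylcholine released by vagal nerve endings binds the M2 muscarinic receptor, the product of Chrm2, on atrial muscle cells. The receptor activates G proteins of the Gi and Go classes, whose alpha subunits include the products of Gnai2 and Gnao1, and the freed beta and gamma subunits open the G-protein-activated potassium channel made of GIRK1 (Kcnj3) and GIRK4 (Kcnj5). The resulting potassium current, known as IKACh, hyperpolarises atrial and sinus node cells. RGS proteins such as those of Rgs4 and Rgs6 speed the hydrolysis of GTP by the alpha subunits and so close the channel sooner.

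The sequences just upstream of the 3 genes that fell in CKO are shown because Tbx5 encodes a DNA-binding factor of the T-box family. Each holds the 250 bases before the RefSeq start of the gene, read 5′ to 3′ on the strand of the gene from RefSeq promoters on GRCm38.p6. Capitals mark the T-box core AGGTGT, or its reverse complement ACACCT where it lies on the other strand. Chrm2 lies at chr6:36387834-36388083 on the plus strand, Kcnj3 at chr2:55435720-55435969 on the plus strand, and Kcnj5 at chr9:32344345-32344594 on the minus strand.
Chrm2: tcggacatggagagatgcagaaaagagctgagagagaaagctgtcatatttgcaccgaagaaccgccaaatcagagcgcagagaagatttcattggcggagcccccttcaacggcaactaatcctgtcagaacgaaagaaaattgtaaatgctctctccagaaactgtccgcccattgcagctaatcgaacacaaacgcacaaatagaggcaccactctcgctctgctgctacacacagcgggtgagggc
Kcnj3: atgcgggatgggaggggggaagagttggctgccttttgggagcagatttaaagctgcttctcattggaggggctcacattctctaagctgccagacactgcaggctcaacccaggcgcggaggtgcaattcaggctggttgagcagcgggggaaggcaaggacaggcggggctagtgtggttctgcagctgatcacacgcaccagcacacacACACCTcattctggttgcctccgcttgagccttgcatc
Kcnj5: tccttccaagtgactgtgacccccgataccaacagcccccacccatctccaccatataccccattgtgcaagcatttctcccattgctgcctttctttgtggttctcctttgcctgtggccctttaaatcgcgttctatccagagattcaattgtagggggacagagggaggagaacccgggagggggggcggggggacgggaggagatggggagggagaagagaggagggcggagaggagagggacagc
AGGTGT, searched on both strands, was found once in the Kcnj3 window, on the minus strand and starting 38 bases before the RefSeq start, and not in those of Chrm2 and Kcnj5. The windows of Rgs4, Rgs6 and Gnao1 had no match, so 1 of 6 windows held the core, whereas 11.8% of the 32851 windows in the table did. The longer form AGGTGTGA, which contains the core, was in 0 of the 6 windows and in 1.12% of the table. Gnai2 was not among the windows read.

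Summed counts ran from 8602794 to 10040808 over the 10 libraries. Tbx5, the targeted gene, was checked first; exon 3 is the part removed from this floxed allele by general knowledge of it, which the labels do not state. Coverage of that exon in the main Tbx5 transcript, relative to the median of all 9 exons, was 0.310, 0.535, 0.482, 0.594, 0.175 and 0.618 in CKO 1 to 6, and 1.21, 1.70, 0.903 and 0.988 in Ctrl 1 to 4, with no overlap. Total Tbx5 RNA was not lower in CKO: it was at 283, 356, 425, 190, 167 and 189 CPM (counts scaled to library size) in CKO 1 to 6 and at 155, 159, 89.6 and 132 CPM in Ctrl 1 to 4. Airway transcripts were abundant in CKO 4 and Ctrl 3, where Scgb1a1 stood at 1452 and 862 CPM, while no other library exceeded 42.0 CPM. Fold changes below are CKO over Ctrl on the log2 scale, with adjusted p-values from edgeR's quasi-likelihood test after Benjamini-Hochberg correction over all tested genes. For Tbx5 the change was 1.00 (SE 0.29, adjusted p = 0.101), which missed the threshold of 0.05. With DESeq2, another count test, it passed (1.02, adjusted p = 0.00963). In edgeR with Xist level as a covariate the Tbx5 change was 0.91 and also passed (adjusted p = 0.0132).

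The receptor and both channel subunits fell in CKO tissue, whereas neither the 2 G protein alpha subunits nor the 2 RGS genes passed the test. A gene that did not pass may still have changed: in simulated counts edgeR found 3 of 65 genes changed 1.5-fold. Of the 7 genes, 3 were called lower and 0 higher at an adjusted p under 0.05 in edgeR. In the higher direction 1 gene, Gnai2, had an unadjusted p under 0.05, and DESeq2 called that 1. Among all tested genes edgeR called 1.26% lower and 1.54% higher, or 2.8% in either direction. At an unadjusted p under 0.05 the shares of all tested genes were 8.14% lower and 8.86% higher, and DESeq2 called 2.49% lower and 3.91% higher. The same 3 genes had no overlap between the 6 CKO and the 4 Ctrl libraries, as had 5.72% of all tested genes (2.7% with CKO lower). In bulk tissue, fewer cells that express a gene and less RNA per cell cannot be told apart. The study's design text speaks of RNA from 4 controls and 6 mutants, so n is taken as mice.

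**Figure D1:**
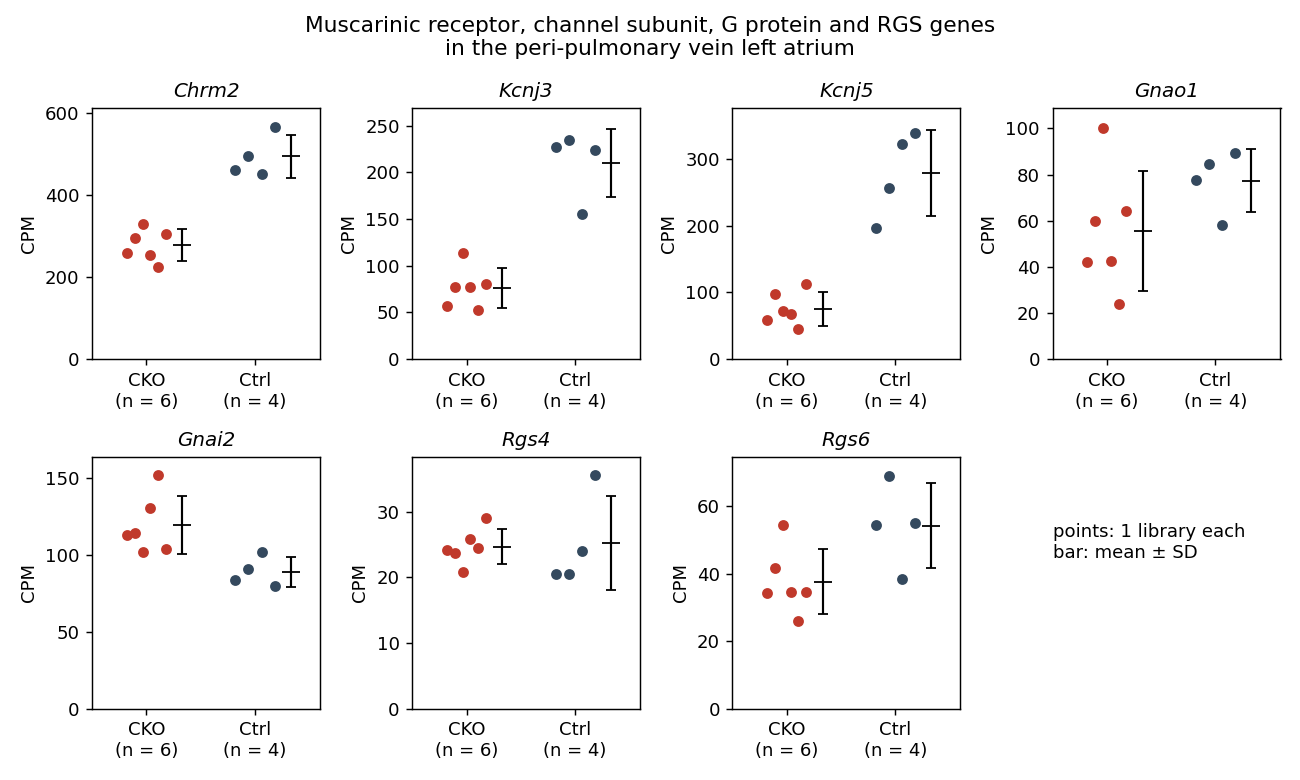
Level of each of the 7 genes in CPM (vertical axis, from 0) in 6 CKO and 4 Ctrl libraries of the peri-pulmonary vein left atrium; each point is a library and the bar beside the points is the mean ± SD. All CKO points of Chrm2, Kcnj3 and Kcnj5 lie under all Ctrl points, while the groups overlap for the other 4 genes.

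Chrm2 (ENSMUSG00000045613, chromosome 6 from 36388084 to 36528414, plus strand), the M2 receptor gene, had the highest CPM of the 7, a scale that does not allow for length. It was at 259, 296, 328, 253, 224 and 305 CPM in CKO 1 to 6 and at 461, 495, 451 and 566 CPM in Ctrl 1 to 4. The highest CKO library was thus well under the lowest Ctrl library, and the groups averaged 277 ± 38.7 CPM in CKO and 493.4 ± 52.1 CPM in Ctrl (SD, n = 6 and n = 4). The fitted change was -0.83 (SE 0.12, adjusted p = 0.00559), or 56.2% of the Ctrl level. Its 95% interval ran from -1.07 to -0.59.

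Kcnj3 (ENSMUSG00000026824, chromosome 2 from 55435970 to 55598145, plus strand), which encodes GIRK1, the subunit that gives the channel its large conductance but needs a partner to reach the membrane, fell further. It was at 57.1, 77.6, 113, 77.5, 53.2 and 80.5 CPM in CKO 1 to 6, against 227, 234, 155 and 224 CPM in Ctrl 1 to 4. CKO 3 was the highest of its group and Ctrl 3 the lowest of its own, and these 2 libraries still did not meet. The means were 76.5 ± 21.5 CPM in CKO and 210.2 ± 36.9 CPM in Ctrl, a change of -1.46 (SE 0.20, adjusted p = 0.00367) to 36.4% of the Ctrl level.

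Kcnj5 (ENSMUSG00000032034, chromosome 9 from 32314707 to 32344350, minus strand), which encodes GIRK4, the partner subunit, had the lowest remaining share of the 7 genes. It was at 58.1, 97.1, 71.4, 68.1, 44.7 and 112 CPM in CKO 1 to 6, against 197, 257, 322 and 339 CPM in Ctrl 1 to 4. Ctrl libraries differed among themselves by more than for Chrm2, with a coefficient of variation of 23.3% for Kcnj5 and 10.6% for Chrm2. The means were 75.3 ± 25.0 CPM in CKO and 279 ± 65.0 CPM in Ctrl, a change of -1.89 (SE 0.24, adjusted p = 0.00252) to 27.0% of the Ctrl level. By p-value Kcnj5, Kcnj3 and Chrm2 stood at ranks 56, 72 and 83 of the 17752 tested genes. Without CKO 4 and Ctrl 3, the libraries with the most airway transcripts, the changes were -0.83 for Chrm2 (adjusted p = 0.0205), -1.56 for Kcnj3 (adjusted p = 0.0104) and -1.76 for Kcnj5 (adjusted p = 0.0179).

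The 2 alpha subunit genes did not pass the test. Gnao1 (ENSMUSG00000031748, chromosome 8 from 93809966 to 93969388, plus strand), the Go alpha subunit gene, was at 42.3, 59.8, 100, 42.5, 24.0 and 64.2 CPM in CKO 1 to 6 and at 77.7, 84.6, 58.1 and 89.1 CPM in Ctrl 1 to 4. CKO libraries spread over more than the whole Ctrl range, with CKO 3 above every Ctrl library and CKO 5 under all of them, and the change of -0.48 (SE 0.31, adjusted p = 0.463) had an interval from -1.09 to 0.13. Gnai2 (ENSMUSG00000032562, chromosome 9 from 107614125 to 107635367, minus strand), the Gi2 alpha subunit gene, was at 113, 114, 102, 131, 152 and 104 CPM in CKO 1 to 6 and at 83.9, 90.6, 102 and 79.8 CPM in Ctrl 1 to 4. Only Ctrl 3, at 102.1 CPM, reached into the CKO range, whose lowest library was CKO 3 at 101.9 CPM. The change of 0.42 (SE 0.13, adjusted p = 0.119, interval 0.17 to 0.67) missed the threshold in edgeR, and passed it in DESeq2, an alternative count test (0.44, adjusted p = 0.0349).

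Neither RGS gene passed the test. Rgs4 (ENSMUSG00000038530, chromosome 1 from 169741477 to 169747642, minus strand), whose product acts on Gi and Go alpha subunits, was at 24.2, 23.7, 20.9, 25.9, 24.4 and 29.0 CPM in CKO 1 to 6 and at 20.5, 20.5, 24.1 and 35.7 CPM in Ctrl 1 to 4. Ctrl 4 was the highest of all 10 libraries and the other Ctrl libraries lay within or just under the CKO range. The change was -0.03 (SE 0.16, adjusted p = 0.948), with an interval from -0.35 to 0.29, and it was 0.19 without Ctrl 4 (adjusted p = 0.590). Rgs6 (ENSMUSG00000021219, chromosome 12 from 82588292 to 83162056, plus strand), whose product works as a complex with the G protein subunit of Gnb5, was at 34.3, 41.8, 54.6, 34.7, 26.1 and 34.5 CPM in CKO 1 to 6 and at 54.6, 68.9, 38.3 and 55.1 CPM in Ctrl 1 to 4. CKO 3 lay at the level of Ctrl 1, and Ctrl 3 among the CKO libraries. The change was -0.53 (SE 0.20, adjusted p = 0.217, interval -0.92 to -0.13), and the unadjusted p was 0.0236.

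Per length of transcript, the order of the genes differed between the groups. On the TPM scale (transcript abundance per length, summed over the annotated transcripts of a gene), CKO tissue had Gnai2 at 119 ± 16.1, Chrm2 at 98.8 ± 21.3, Rgs6 at 41.5 ± 14.7, Kcnj5 at 40.8 ± 15.1, Gnao1 at 37.0 ± 18.7, Kcnj3 at 33.1 ± 10.5 and Rgs4 at 17.0 ± 3.73. Ctrl tissue had Chrm2 at 194 ± 40.1, Kcnj5 at 148 ± 35.5, Gnai2 at 101 ± 3.98, Kcnj3 at 88.5 ± 20.8, Rgs6 at 59.8 ± 17.0, Gnao1 at 53.7 ± 15.8 and Rgs4 at 18.2 ± 7.11. The CKO ranges of Rgs6, Kcnj5, Gnao1 and Kcnj3 overlapped, so their order in CKO is within the spread of the libraries, as is that of Gnai2 and Chrm2; the Rgs4 range met those of all 4 there. In Ctrl the ranges of each pair of neighbours overlapped down to Gnao1, and Rgs4 lay under all the others.

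Whether the receptor and the channel subunits fell by the same factor was asked with the ratio of their TPM values within each library. Chrm2 to Kcnj5 was 2.76, 2.03, 3.25, 2.24, 3.43 and 1.88 in CKO 1 to 6 and 1.75, 1.34, 0.994 and 1.29 in Ctrl 1 to 4, so every CKO library lay above every Ctrl library. The mean log2 ratio was higher by 0.94 in CKO (SE 0.22; exact two-sided permutation test over 210 relabellings, p = 0.00476, the smallest possible; adjusted p = 0.0111 over the 21 pairs of the 7 genes). Kcnj5 RNA was lower relative to Chrm2 RNA in CKO than in Ctrl. Without both Ctrl 3 and CKO 4 the difference was 0.84 (exact permutation test, adjusted p = 0.0625).

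Chrm2 to Kcnj3 was 2.91, 3.23, 2.59, 3.06, 3.87 and 2.87 in CKO 1 to 6 and 1.85, 1.98, 2.64 and 2.46 in Ctrl 1 to 4. CKO 3 alone lay under the highest Ctrl library, Ctrl 3. The mean log2 ratio was higher by 0.47 in CKO (SE 0.15; exact permutation p = 0.00952, adjusted p = 0.0167 over 21 pairs). Without Ctrl 1 the difference was 0.39 and missed the threshold (exact permutation test, adjusted p = 0.0625).

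Kcnj3 to Kcnj5, the ratio of the 2 subunits of one channel, was 0.951, 0.626, 1.25, 0.731, 0.886 and 0.653 in CKO 1 to 6 and 0.946, 0.679, 0.377 and 0.526 in Ctrl 1 to 4. The groups overlapped, and the difference of 0.47 in mean log2 ratio (SE 0.32) did not pass the exact permutation test (p = 0.148). Of 14 alternatives it passed in 1, without Ctrl 1 (0.69 in size, exact permutation p = 0.0476). The ratio was 0.850 ± 0.235 in CKO and 0.632 ± 0.243 in Ctrl. The pairs with Chrm2 were picked from the 21 after the gene levels had been seen.

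**Figure D2:**
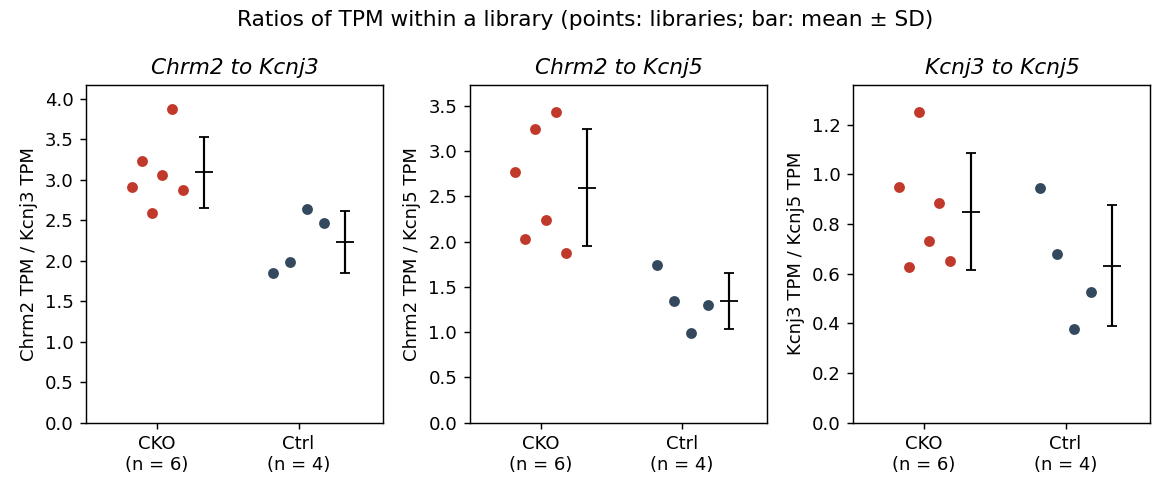
Ratio of TPM values within each library (vertical axes, no unit, from 0) for Chrm2 to Kcnj3, Chrm2 to Kcnj5 and Kcnj3 to Kcnj5, with 6 CKO points left of 4 Ctrl points and the mean ± SD beside them. Chrm2 to Kcnj5 separates the groups, with 1.88 as the lowest CKO value and 1.75 as the highest Ctrl value, while Kcnj3 to Kcnj5 overlaps.

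The channel subunit genes each have 3 annotated transcripts, and their estimated TPM was compared as a share of the gene. Kcnj3-201 (ENSMUST00000067101, 5215 bases with 1503 coding bases in 3 exons) carried 52.2%, 47.3%, 44.5%, 75.9%, 66.9% and 64.4% of Kcnj3 TPM in CKO 1 to 6 and 86.8%, 81.4%, 80.3% and 84.5% in Ctrl 1 to 4. The groups did not overlap, yet the difference of -24.7 percentage points did not pass over the 24 transcripts tested (exact permutation p = 0.0143, adjusted p = 0.171). Kcnj3-202, which ends in another coding part and has 705 coding bases, was at 0 TPM in CKO 1, CKO 6 and Ctrl 1. Kcnj3-203, which has the same coding exons as Kcnj3-201, was above 10 TPM in those same 3 libraries and under 1 TPM in the other 7, so the estimated split between these models differed from library to library.

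Kcnj5-201 (ENSMUST00000034533, 4685 bases) and Kcnj5-202 (ENSMUST00000214223, 3101 bases) have the same 1257 coding bases and differ outside them. Kcnj5-201 stood at 8.52, 16.6, 15.1, 3.67, 7.30 and 19.5 TPM in CKO 1 to 6 and at 55.5, 58.2, 80.4 and 113 TPM in Ctrl 1 to 4. Kcnj5-202 stood at 15.9, 34.3, 16.0, 36.2, 8.62 and 42.5 TPM in CKO 1 to 6 and at 42.8, 77.1, 64.7 and 69.2 TPM in Ctrl 1 to 4. Both forms were lower in every CKO library than in any Ctrl library. The share of Kcnj5-201 was 29.6% ± 11.3 in CKO and 51.4% ± 7.59 in Ctrl (SD, n = 6 and n = 4), a difference of -21.8 percentage points that did not pass over the 24 transcripts (exact permutation p = 0.00952, adjusted p = 0.171). Over all 7 genes 0 of 24 transcript shares passed, with 3 at an unadjusted exact p under 0.05.

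**Figure D3:**
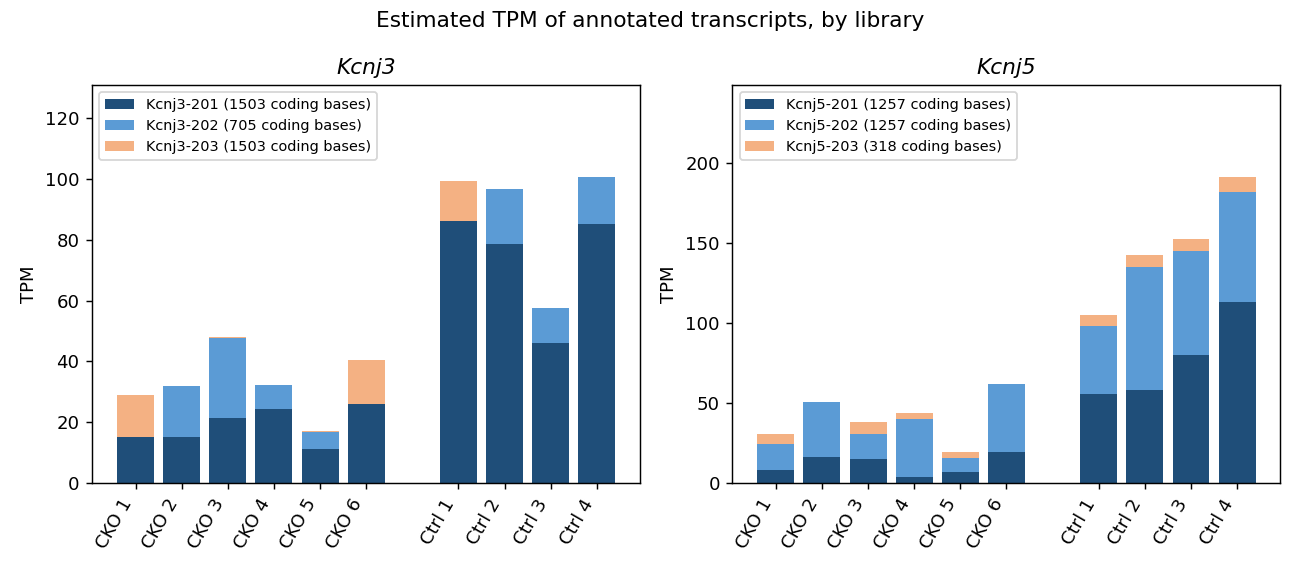
Estimated TPM (vertical axis, from 0) of the 3 annotated transcripts of Kcnj3 and of Kcnj5, stacked, in CKO 1 to 6 at the left and Ctrl 1 to 4 at the right. The tallest CKO bar is 47.9 TPM for Kcnj3 and 61.9 TPM for Kcnj5, under the lowest Ctrl bars of 57.5 and 105 TPM.

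Other genes of the pathway were counted in 8 lists. Of 80 genes other than the 7, 66 were tested; edgeR called 3 lower and 0 higher. At an unadjusted p under 0.05, 8 were lower and 4 higher, and DESeq2 called 4 lower and 1 higher, which was Rgs10. Over all tested genes the shares were 1.26% lower and 1.54% higher for edgeR calls, 8.14% lower and 8.86% higher at an unadjusted p under 0.05, and 2.49% lower and 3.91% higher in DESeq2. Their median change was -0.06, beside -0.53 over the 7 genes and -0.03 over all tested genes. The lists were chosen with earlier results of these data known.

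Among the receptors, Chrm3, the M3 muscarinic receptor gene, averaged 2.91 CPM in CKO and 2.18 CPM in Ctrl (0.42, adjusted p = 0.561), and Chrm1 and Chrm4 were too low to be tested. Of 6 tested genes for other Gi-coupled receptors, edgeR called Adora1 lower, and DESeq2 called Adora1 and Npy1r, a neuropeptide Y receptor gene, lower (Npy1r -0.73, adjusted p = 0.0492 in DESeq2 and 0.109 in edgeR). Adora1 encodes the A1 adenosine receptor, which opens the same potassium channel in atrial muscle. Adora1 was at 8.28, 14.0, 11.8, 11.2, 9.50 and 10.8 CPM in CKO 1 to 6 and at 23.2, 20.7, 15.7 and 19.2 CPM in Ctrl 1 to 4, with no overlap (-0.85, SE 0.16, adjusted p = 0.0196). The call was lost without Ctrl 1, Ctrl 2 or Ctrl 4 (adjusted p = 0.0788, 0.0741 and 0.0557), and with limma on log2(TPM + 1) (adjusted p = 0.0541). The third inward rectifier subunit gene in the table, Kcnj6, averaged 0.395 CPM in CKO and 0.164 CPM in Ctrl and was not tested.

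The G protein genes beyond Gnao1 and Gnai2 gave 0 calls in edgeR in 11 alpha subunit genes, of which 0 had an unadjusted p under 0.05, and DESeq2 called 0. In 14 beta and gamma subunit genes edgeR and DESeq2 also called 0, and 1 was lower and 2 were higher at an unadjusted p under 0.05. The lower one was Gng12, a gamma subunit gene, which stood at 5.26, 5.35, 4.06, 54.5, 9.39 and 21.8 CPM in CKO 1 to 6 and at 52.1, 54.5, 66.0 and 47.5 CPM in Ctrl 1 to 4. CKO 4, which held the most airway transcripts, was the single CKO library at the Ctrl level. The fitted change of -1.71 (SE 0.64) missed the threshold in edgeR (adjusted p = 0.209) and passed in limma voom (-2.36, adjusted p = 0.0407). On the TPM scale the Gng12 means lay closer, at 19.6 in CKO and 28.6 in Ctrl. There limma on log2(TPM + 1) called 0 genes of this list lower. Gnas, the Gs alpha gene, averaged 141 ± 13.6 CPM in CKO and 163 ± 13.6 CPM in Ctrl (-0.21, adjusted p = 0.300). Gna13, the G13 alpha gene, averaged 112 ± 6.71 CPM in CKO and 106 ± 12.2 CPM in Ctrl (0.08, adjusted p = 0.706). The beta subunit genes Gnb1 and Gnb2 averaged 119.7 ± 18.04 and 96.9 ± 11.3 CPM in CKO, beside 124 ± 18.1 and 88.1 ± 12.9 CPM in Ctrl (adjusted p = 0.887 and 0.587). Gnb5, whose product is the partner of RGS6 and RGS7, averaged 28.9 CPM in CKO and 32.9 CPM in Ctrl (-0.19, adjusted p = 0.486).

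Among 15 other tested genes of the RGS list, 2 were called lower. Rgs2, whose product acts mainly on the Gq alpha subunit, was at 49.8, 39.8, 36.4, 43.8, 69.3 and 30.7 CPM in CKO 1 to 6 and at 112, 78.2, 93.5 and 104 CPM in Ctrl 1 to 4 (-1.11, SE 0.20, adjusted p = 0.0155). Rgs7, which belongs to the same subfamily as Rgs6, was at 8.73, 12.9, 10.9, 10.6, 13.0 and 13.3 CPM in CKO 1 to 6 and at 22.7, 22.4, 14.4 and 18.7 CPM in Ctrl 1 to 4 (-0.76, SE 0.17, adjusted p = 0.0356). Neither gene overlapped between the groups. The Rgs2 call was lost without Ctrl 1 or Ctrl 4 (adjusted p = 0.0589 and 0.0529). The Rgs7 call was lost without any 1 of Ctrl 1, 2 or 4 or of CKO 1, 2, 3, 4 or 6 (adjusted p = 0.0503 to 0.138), with no filter on low counts (adjusted p = 0.0806) and with limma on log2(TPM + 1) (adjusted p = 0.147).

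Receptor kinases, arrestins and G protein modulators gave 0 calls in 14 tested genes in edgeR and in DESeq2, with 2 lower and 1 higher at an unadjusted p under 0.05. Arrb1, which encodes beta-arrestin 1, averaged 79.1 ± 51.9 CPM in CKO and 117 ± 54.7 CPM in Ctrl (adjusted p = 0.602), and Grk3, a receptor kinase gene, averaged 61.5 ± 13.8 CPM in CKO and 96.0 ± 24.2 CPM in Ctrl (-0.64, adjusted p = 0.137). Of the 5 tested genes for making, carrying and breaking down acetylcholine, 0 were called in edgeR or DESeq2, and 0 had an unadjusted p under 0.05. All 5 had a change under 0, with a list median of -1.14. Slc18a3 and Colq, however, had an SD above the mean in Ctrl, at 2.90 ± 5.09 and 4.17 ± 4.92 CPM. In CKO they averaged 1.09 ± 1.15 and 1.87 ± 1.12 CPM. Bche, the butyrylcholinesterase gene, averaged 87.1 ± 9.45 CPM in CKO and 98.0 ± 18.6 CPM in Ctrl (adjusted p = 0.551). Slc5a7, the choline transporter of cholinergic nerve cells, ranged from 2.24 to 20.6 CPM in CKO and from 0 to 94.5 CPM in Ctrl, where Ctrl 4 alone set the upper end (-1.38, adjusted p = 0.552, and 0.89 without Ctrl 4).

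**Figure D4:**
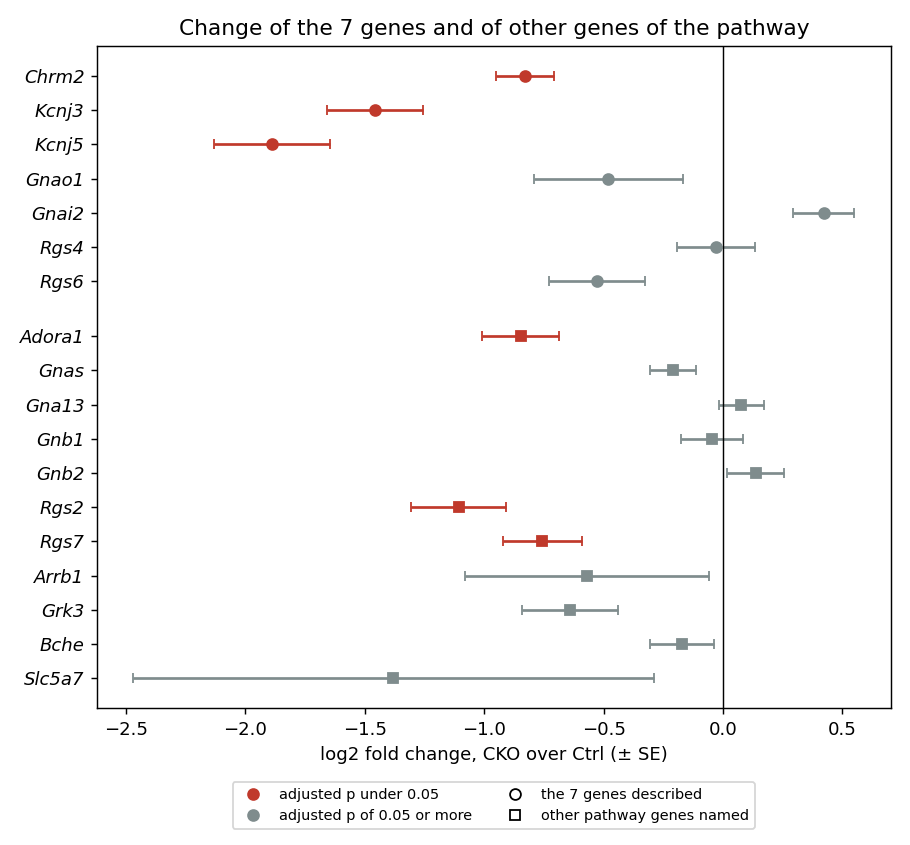
Log2 fold change of CKO over Ctrl (horizontal axis) with its SE for the 7 genes (circles, above) and for the other pathway genes named (squares, below); red marks an adjusted p under 0.05 in edgeR. Kcnj5 at -1.89 is farthest to the left among the red circles, and the red squares are Adora1, Rgs2 and Rgs7.

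Markers of the cell types in the piece were set beside these changes. All 12 cardiomyocyte markers were detected, and their summed level was 76426 to 136673 CPM in CKO and 71292 to 115364 CPM in Ctrl; edgeR called 4 of them (Tnnt2, Mybpc3, Tnnc1 and Ckmt2) higher in CKO and 0 lower, with 6 higher and 1 lower at an unadjusted p under 0.05. DESeq2 called 5 higher and 1 lower; the lower one was Ryr2, the ryanodine receptor gene (-0.87, adjusted p = 0.0348), which edgeR did not call (-0.89, adjusted p = 0.134). The sum was highest in CKO 3 and lowest in CKO 5 among CKO libraries, and lowest in Ctrl 3 among Ctrl libraries. Chrm2, Kcnj3, Gnao1 and Rgs6 were likewise highest in CKO 3 and lowest in CKO 5 among CKO libraries, and lowest in Ctrl 3 among Ctrl libraries.

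Per 1000 CPM of these muscle markers, Kcnj3 was 0.506 to 0.836 CPM in CKO and 2.03 to 2.18 CPM in Ctrl, Kcnj5 was 0.515 to 0.946 CPM in CKO and 1.79 to 4.52 CPM in Ctrl, and Chrm2 was 2.19 to 2.93 CPM in CKO and 4.19 to 6.32 CPM in Ctrl. All 3 were without overlap on this scale, as were 5.29% of all tested genes (4.53% with CKO lower). Ctrl 3 was no longer low for Kcnj3, at 2.18 CPM beside 2.03 to 2.06 CPM in the other Ctrl libraries. Rgs6 was 0.291 to 0.399 CPM in CKO and 0.496 to 0.598 CPM in Ctrl, also without overlap, and Gnao1 was 0.314 to 0.732 CPM in CKO and 0.706 to 0.815 CPM in Ctrl. This scale was added after the levels had been seen, has no test, and leans on markers of which some were themselves higher in CKO. Its largest parts were Ttn and Myh6, at 64552 and 19322 CPM on average over the 10 libraries. Neither was called in edgeR (adjusted p = 0.998 and 0.483).

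Nerve cells also express several of these genes. Of 15 peripheral neuron markers 12 were tested, all 12 had a change under 0, 1 (Dbh) was called lower, and their summed level was 29.9, 156, 117, 118, 46.5 and 37.6 CPM in CKO 1 to 6 and 49.3, 30.9, 106 and 547 CPM in Ctrl 1 to 4. The sum was thus high in Ctrl 4 alone, the library with the highest Chrm2, Kcnj5 and Rgs4. Slc5a7, which is also among these markers, stood at -1.38 in the full fit and at 0.89 without Ctrl 4. The signs of the other markers without Ctrl 4 are not given here. Without Ctrl 4 the change of Chrm2 was -0.76 (adjusted p = 0.0233), that of Kcnj3 -1.42 (adjusted p = 0.0168) and that of Kcnj5 -1.78 (adjusted p = 0.0129). Dbh, the called marker, was at 2.13 to 7.14 CPM in CKO and at 12.5 to 21.8 CPM in Ctrl, with no overlap. The part of nerve cells in the results was not tested. Of 8 Schwann cell markers edgeR and DESeq2 each called 1 (Kcna1) lower, 7 had a change under 0 with a list median of -0.49, and 4 were lower at an unadjusted p under 0.05. Their summed level was 169 to 281 CPM in CKO and 165 to 257 CPM in Ctrl, a sum in which Pmp22, the single marker above 0, averaged 125 CPM in CKO and 83.7 CPM in Ctrl. All 8 macrophage markers had a change above 0; edgeR called 3 (Cd68, Cd163 and C1qb) and DESeq2 6 higher, and 7 were higher at an unadjusted p under 0.05. Their sum was 1335 to 2541 CPM in CKO and 890.0 to 1850.0 CPM in Ctrl. It was highest in CKO 5 and CKO 4 and lowest in CKO 3 among CKO libraries, and highest in Ctrl 3 and lowest in Ctrl 4 among Ctrl libraries, as Gnai2 was. The part of these cells in the results was not tested. Airway markers summed to 0.420 to 6530 CPM in CKO and to 3.17 to 3919 CPM in Ctrl, with CKO 4 and Ctrl 3 at the top of their groups. Next in each group were CKO 5 at 34.3 CPM and Ctrl 1 at 226 CPM. Endothelial, fibroblast, pericyte and smooth muscle, and airway lists gave 0 calls in edgeR; at an unadjusted p under 0.05 there were 3 endothelial and 3 fibroblast markers higher and 1 fibroblast marker lower, and 0 in the last 2 lists, and DESeq2 called 1 endothelial marker and 2 fibroblast markers higher and 1 fibroblast marker lower.

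How the 7 genes varied from animal to animal was described by the correlation of their log2 CPM after removal of each group's mean, over 10 libraries. Gnao1 moved with Chrm2 (Pearson r = 0.93), Kcnj3 (0.90) and Rgs6 (0.86), and Kcnj3 with Rgs6 (0.89). Gnai2 moved against Gnao1 (-0.89) and Chrm2 (-0.88). Kcnj3 and Kcnj5, the 2 subunits of the channel, had a value of 0.32. All points share library size scaling and the mix of cells in a piece.

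By the same measure over 10427 genes of at least 10 CPM, the genes most like Chrm2 were Ppp1r9a (0.97), Cdk12 (0.97), Nbea (0.96), Gm37621 (0.96) and Cpeb2 (0.95), none of which was called. Those most like Kcnj3 were March6 (0.96), Lgr4 (0.96), Gm48309 (0.96), Map4 (0.96) and Tmtc1 (0.95), again with 0 called. Those most like Kcnj5 were Samd5 (0.99), Echdc2 (0.93), Rbm15b (0.92), Clk4 (0.91) and Dedd2 (0.90). Samd5 was higher in CKO than in Ctrl (0.84, adjusted p = 0.00975), opposite to Kcnj5, although the 2 genes deviated together within the groups.

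The left atrial appendage was read from the authors' deposited table alone, which gives fold changes and false discovery rates (FDR) for 13646 genes. In the authors' deposited table the appendage change of CKO against Ctrl was -1.33 for Chrm2 (FDR = 9.12e-12), -2.43 for Kcnj3 (FDR = 1.36e-30) and -2.02 for Kcnj5 (FDR = 2.26e-24), or 39.8%, 18.5% and 24.7% of the Ctrl level. Beside these, the authors' deposited table gives -0.85, -1.47 and -1.90 for the same genes around the pulmonary veins. In both regions the receptor and both subunits were thus lower in CKO at an FDR under 0.05. Of all genes in the authors' deposited table, 17.9% were lower in the appendage at that FDR and 2.47% around the veins, so a call in the appendage was far more common. The difference between the regions was not tested.

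Rgs4 and Gnai2 gave another pattern in the authors' deposited table. Rgs4 was higher in the CKO appendage (0.91, FDR = 4.17e-07), against -0.05 (FDR = 0.961) around the veins, and Gnai2 was higher in the CKO appendage (0.47, FDR = 0.0275), against 0.40 (FDR = 0.198) around the veins. At that FDR 16.8% of all genes were higher in the appendage and 3.03% around the veins, in the authors' deposited table. Rgs6 and Gnao1 passed in neither region: the authors' deposited table gives -0.33 and -0.22 in the appendage (FDR = 0.105 and 0.447) and -0.54 and -0.50 around the veins (FDR = 0.132 and 0.434).

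The same table compares the peri-pulmonary vein piece with the appendage, without saying in its header which genotypes entered. In the authors' deposited table Kcnj3 was lower around the veins than in the appendage (-0.86, FDR = 6.36e-04), and Rgs4, Rgs6 and Gnao1 were higher there (0.84, 0.81 and 0.74, with FDR = 0.00732, 0.00115 and 0.00667). Kcnj5 was at 0.03 (FDR = 0.960), Chrm2 at -0.52 (FDR = 0.0780) and Gnai2 at -0.40 (FDR = 0.141) in the authors' deposited table. Of all its genes, 4.06% were lower and 8.19% higher around the veins. The 3 airway markers in the authors' deposited table were all higher around the veins, by at least 12.8 on the log2 scale. The part of tissue makeup in these differences was not tested.

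**Figure D5:**
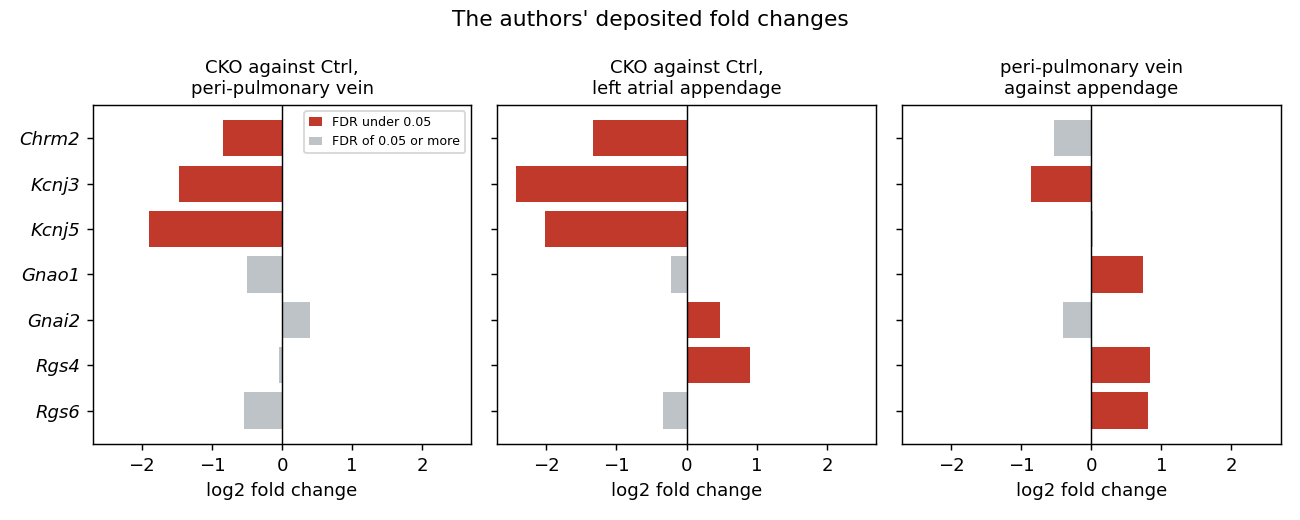
Log2 fold changes from the authors' deposited table for the 7 genes: CKO against Ctrl around the pulmonary veins, CKO against Ctrl in the appendage, and peri-pulmonary vein against appendage; red bars have an FDR under 0.05 and grey bars do not. Chrm2, Kcnj3 and Kcnj5 are red and negative in both CKO panels, and Rgs4 is red in the appendage panel, at 0.91, and close to 0 in the vein panel.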

How the data were processed

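RNA of 6 CKO and 4 Ctrl peri-pulmonary vein pieces was depleted of ribosomal RNA and sequenced, per the labels' protocols, although the labels give polyA RNA as the molecule. Per the submitters' processing notes, reads were aligned to mm10 with TopHat2 2.1.1, filtered with BamTools, assigned with StringTie 1.3.3 and tested by the authors in R 3.4.0 with limma 3.32.10 and edgeR 3.18.1. The gene table, as deposited by the authors, holds estimated counts: for all 54532 genes a value equals its transcripts' coverage multiplied by their length and divided by 50, the read length, with each transcript rounded up. Reads themselves were not counted. The deposited transcript files hold TPM and coverage (a signal, mean reads per base), per the file headers from StringTie run on the Ensembl annotation with a setting for stranded reads, which the kit named in the labels does not mark. Genes that overlap a member therefore cannot be told apart from it by strand; the largest, on the other strand of Chrm2, had 11.9% of the Chrm2 count. The authors' deposited table holds log2 fold changes, a p-value and a false discovery rate. Its vein column matched the fit made here (Pearson r = 1.000 over 13628 genes), and its region column was read as vein over appendage because its 3 airway markers were all above 12.8. The gene table has 10 further columns, for appendage libraries of another series, which were not used here.

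Counts were tested with edgeR 4.0.16 (filterByExpr, TMM factors of 0.951 to 1.05, quasi-likelihood F test, Benjamini-Hochberg, threshold 0.05) with genotype as the only term; DESeq2 1.42.0 and limma 3.58.1 served as alternatives, in R 4.3.3. The tests were checked on simulated counts. There edgeR found 3 of 65 genes changed 1.5-fold, 28 of 64 changed 2-fold and 62 of 68 changed 4-fold. Of its 100 calls, 7 were false. A gene that was not called may thus have changed by 1.5-fold, by 2-fold or, less often, by 4-fold. Between 8602794 and 10040808 counts stood behind each library, and each of the 7 genes had at least 188 counts in every library; replicates differed by more than counting error (lowest chi-square for each degree of freedom 10.9). Intervals are the fold change ± 1.96 SE. Ratios and transcript shares (mean TPM of at least 1, mean share of 5% to 95%) were tested by exact permutation over 210 relabellings. The genes named are the 7 members and the called genes of each pathway list or its 2 most abundant. The 5 genes most like each of Chrm2, Kcnj3 and Kcnj5 are also named. Chrm1, Chrm3, Chrm4, Kcnj6, Npy1r, Gnb5, Gng12, Rgs10, Slc18a3 and Colq were added after their values were seen. The members and lists were chosen with earlier results of these data known. The set of RefSeq promoters used here held a window for 6 of the 7 genes.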

Additional observations from a re-analysis of the deposited data

Results flagged for a closer look

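Values far from the rest of their own group were looked for in groups of 4 to 10 libraries with Dixon's test at its 95% critical value, which flags about 1 group in 20 by chance. Of 90 groups checked, 8 held such a value. Kcnj3 in Ctrl 3 was at 155 CPM, below 224 CPM in the next Ctrl library. The Kcnj3 to Gnai2 TPM ratio of Ctrl 3 was 0.538, below 0.966 in the next. Ctrl 3 is 1 of the 2 libraries with the most airway transcripts and had the lowest sum of cardiomyocyte markers in its group. Without Ctrl 3 the Kcnj3 change was -1.57 (edgeR adjusted p = 0.00392).

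The Chrm2 to Rgs4 TPM ratio of CKO 3 was 9.09, above 5.91 in the next CKO library, and the Kcnj3 to Rgs4 ratio of CKO 3 was 3.50, above 2.06. The Rgs4 to Gnai2 ratio of Ctrl 4 was 0.292, above 0.148 in the next Ctrl library, and Slc5a7 in Ctrl 4 was at 94.5 CPM, above 12.8 CPM; Ctrl 4 also had the highest sum of peripheral neuron markers. Among transcripts, Kcnj3-203 (ENSMUST00000112633) held 13.2% of Kcnj3 TPM in Ctrl 1 and 0.0432% in the next Ctrl library, and Kcnj5-201 (ENSMUST00000034533) held 8.32% of Kcnj5 TPM in CKO 4 and 27.8% in the next CKO library.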

How the results depend on the processing

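Under 20 alternative settings of the fit over all genes, Kcnj5 kept its direction and its call in all, Chrm2 and Kcnj3 in 19, and Rgs6 and Gnao1 their direction without a call in all. With 1 library left out, the changes ran from -0.88 to -0.76 for Chrm2, from -1.60 to -1.37 for Kcnj3 and from -2.04 to -1.78 for Kcnj5. The numbers shared by Ctrl and CKO libraries do not pair them (correlations of same-numbered libraries 0.0313, 0.0876, -0.319 and 0.0894). CKO 5 and CKO 6 share their number with no Ctrl library, so a block by number leaves the change to the other libraries. With the number as a replicate block, 3 member calls became 1, with Chrm2 at -0.80 (adjusted p = 0.118) and Kcnj3 at -1.40 (adjusted p = 0.119) past the threshold no longer, while over all genes 26 were lower and 11 higher and over the pathway 1 was lower; the Kcnj5 to Kcnj3 log2 ratio was -0.52 (sign-flip exact p = 0.375, smallest possible 0.125). Over all genes, 274 higher and 223 lower became 692 and 440 with DESeq2, which also called Gnai2 (0.44, adjusted p = 0.0349; 1 member higher) and 1 pathway gene higher. They became 179 higher with limma on log2(TPM + 1), where the pathway had 1 higher and 1 lower, and 147 lower with no filter on low counts. Without both Ctrl 3 and CKO 4 the pathway had 5 lower. With 1 library left out there were 87 to 302 genes higher (lowest without Ctrl 2) and 103 to 314 lower (lowest without Ctrl 2), 0 to 1 pathway genes higher and 0 to 4 lower (0 without Ctrl 1 or Ctrl 4), and a Kcnj5 to Kcnj3 log2 ratio of -0.69 to -0.24. The sign of Rgs4 turned to 0.021 with no filter, 0.00432 with limma voom and 0.00433 with Xist level as a covariate, and ran from -0.11 to 0.19 with 1 library left out; Slc5a7 turned to 0.83 with limma voom and 0.19 with the block, and ran from -1.79 to 0.89; Gnb1 ran from -0.12 to 0.063. The cause was not tested in any of these. With the block the Adora1 and Rgs7 calls were lost (adjusted p = 0.244 and 0.185). Of the 4 uncalled member genes, the 95% intervals of Gnao1 and Rgs4 include 0 and those of Gnai2 and Rgs6 do not.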
